A study of Rattus norvegicus with 3 samples.

Results

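The potassium channels described here are the inward rectifiers (Kcnj genes), the two-pore channels (Kcnk), and the channels opened by internal calcium or sodium, namely the large-conductance channel with its auxiliary subunits (Kcnma1 and Kcnmb), the small- and intermediate-conductance channels (Kcnn), the sodium-activated channels (Kcnt) and the sperm channel gene Kcnu1. They were chosen by gene symbol, and Kcnj8 and Kcnj13 were left out by that rule. The rule found 40 of 30957 listed genes, carrying 39 symbols, because Kcnk6 appears under 2 gene IDs. Inward rectifiers made up 13 of them, two-pore channels 15 and calcium- or sodium-activated channels 12. Motor cortex was taken from 3 male rats of the outbred Sprague-Dawley stock. All were untreated and formed 1 group, labelled normal, at a time of 8 weeks that the labels do not define further. Each animal (numbers 32, 39 and 68) gave 1 mRNA sequencing library. Values are FPKM, which are fragments per gene divided by gene length and by library size, and they are given as mean ± SD over the 3 animals unless each animal is named. Because each animal has its own dissection and its own library, a difference between rats and one between preparations cannot be told apart. In bulk tissue, fewer cells of a type and less RNA per cell cannot be told apart either.

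These channels set the resting potential and the excitability of neurons and glia. Inward rectifiers pass potassium more easily into the cell than out of it. Some of them are opened by G proteins after receptor activation, one is closed by ATP, and others clear potassium in astrocytes. Two-pore channels carry background leak current, with each subunit supplying a pair of pore loops. Calcium- and sodium-activated channels open after firing and shape the repolarisation and the pause that follow an action potential.

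The libraries held about 15460924 to 17670986 fragments, as inferred from short genes, so 1 FPKM rested on 15.5 to 17.7 fragments per kilobase of gene length. Of the marker lists, all 6 glutamatergic and all 6 GABAergic neuron genes lay above 1 FPKM (limma, adjusted p under the threshold of 0.05), as did 64.4% of all tested genes. By the same criterion 5 of 7 striatal neuron genes and 2 of 7 choroid plexus genes lay above it, so these counts do not separate cortex from its neighbours. The library of animal 68 stood apart. Its 7 choroid plexus genes summed to 8104 FPKM, against 59.2 in animal 32 and 699 in animal 39. Its 7 striatal neuron genes summed to 236 FPKM, against 124 and 98.4. Shares, pair counts and the spread between animals are therefore also given over animals 32 and 39 alone, a choice made after the data were seen.

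The channels lay above 1 FPKM about as often as all tested genes, and the 7 highest held most of their summed FPKM. Of the 40 genes, 36 were above 0 in at least 1 library, and 25 had a mean of at least 1 FPKM. Against a bound of 1 FPKM, 22 of the 36 lay above and 9 below (limma, moderated one-sample test of log2 values, 2-sided, Benjamini-Hochberg adjustment over 18929 genes, threshold 0.05). The share above the bound was 61.1%, close to the 64.4% of all tested genes, and 23.2% of all tested genes lay below it. The median over the 36 channels was 4.03 FPKM, against 5.14 over all 18929 genes. The 7 highest, Kcnj3, Kcnj9, Kcnj10, Kcnk4, Kcnmb4, Kcnj4 and Kcnt1, held 65.2 ± 2.82% of the summed FPKM of all 40, and 66.5% over animals 32 and 39. They were ranked on these same values, and the like share of other gene sets was not computed. Kcnk10, Kcnk13, Kcnk16, Kcnmb2 and Kcnn3 fell on neither side of the bound. Kcnk18, Kcnmb3 and both IDs of Kcnk6 were listed at 0 in every library.

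**Figure D1:**
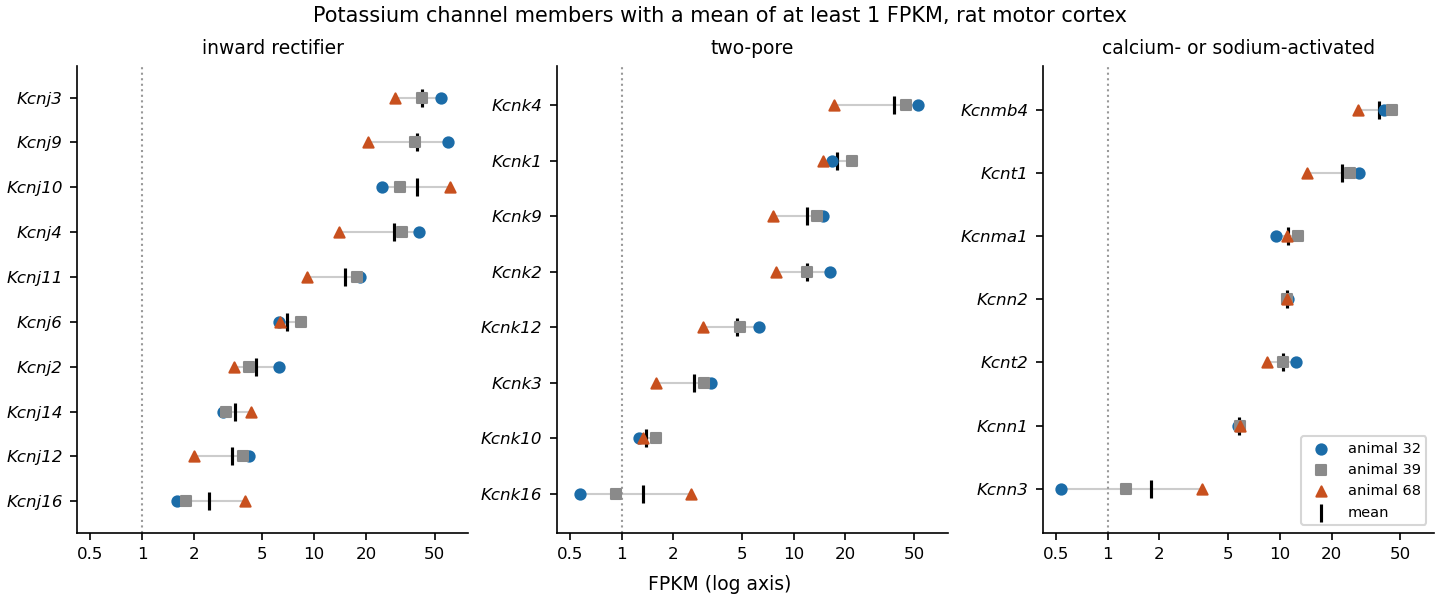
FPKM of the 25 channels whose mean reached 1 FPKM, in 3 panels by family, on a log axis. Circles, squares and triangles are animals 32, 39 and 68, the black tick is their mean, and the dotted line is 1 FPKM; Kcnn2 and Kcnn1 have the tightest points, while Kcnn3 runs from 0.533 to 3.54 FPKM.

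The order of levels was coarse. Of the 24 steps between neighbours in the ranking of the 25 genes, 5 had a mean log2 ratio larger than its SD over the animals. The 9 genes from Kcnj3 down to Kcnj11 formed a run in which no neighbours differed beyond that spread. Those 5 steps were Kcnj11 over Kcnk9, Kcnt2 over Kcnj6, Kcnj6 over Kcnn1, Kcnj12 over Kcnk3 and Kcnj16 over Kcnn3, and each held in 3 of 3 animals.

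G protein-gated channels had the highest summed FPKM of the inward rectifier groups in animals 32 and 39 (121 and 89.9), but not in animal 68 (56.7), where Kcnj10 alone was higher. Kcnj3 encodes GIRK1, which needs a partner subunit to reach the cell surface, and measured 54.7, 42.4 and 29.3 FPKM in animals 32, 39 and 68. Kcnj9 (GIRK3) measured 59.8, 38.7 and 20.4 FPKM in the same animals. Both genes were highest in animal 32 and lowest in animal 68. Kcnj6 (GIRK2, a subunit that can form channels on its own) measured 6.28, 8.34 and 6.29 FPKM. Kcnj5 (GIRK4, the main cardiac partner of GIRK1) lay below the bound at 0.404 ± 0.219 FPKM. Kcnj3 thus supplied 48.1 ± 3.33% of the FPKM summed over the 4 GIRK genes, Kcnj9 42.9 ± 6.69%, Kcnj6 8.52 ± 3.02% and Kcnj5 0.569 ± 0.495%. Over animals 32 and 39 these shares were 46.2% for Kcnj3, 46.3% for Kcnj9, 7.23% for Kcnj6 and 0.293% for Kcnj5.

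Genes around the GIRK channel were taken from a list of receptors that open it and a list of regulators. Of 13 receptor genes, 10 lay above 1 FPKM, 1 below and 2 on neither side, with a median level of 6.52 ± 0.413 FPKM. The GABA-B receptor subunits Gabbr2 (94.0 ± 26.9 FPKM) and Gabbr1 (82.3 ± 0.878) were highest, followed by the cannabinoid receptor Cnr1 (48.8 ± 11.1) and the adenosine receptor Adora1 (40.8 ± 4.42). The mu opioid receptor Oprm1 was the one below the bound (0.123 ± 0.0991 FPKM). Of 13 listed regulators 11 were found, and all 11 lay above the bound, with a median of 64.3 ± 6.84 FPKM. Of all tested genes, 64.4% lay above it. The regulators were led by the G protein subunits Gnb1 (239 ± 16.3), Gnao1 (185 ± 11.0) and Gnb2 (129.9 ± 10.6) and by Rgs4 (169.7 ± 119), which speeds the end of G protein signals.

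The astrocytic rectifiers went the other way between animals. Kcnj10, the main potassium channel of astrocytes and a channel of oligodendrocytes, measured 24.7, 31.6 and 61.9 FPKM in animals 32, 39 and 68. Its partner subunit Kcnj16, which joins it in mixed channels, measured 1.61, 1.79 and 3.94 FPKM. Both were highest in animal 68. Their ratio was steady, with Kcnj10 above Kcnj16 by 3.86, 4.07 and 3.94 on the log2 scale, a mean of 15.5-fold (SE 0.06 on the log2 scale; limma without moderation, adjusted p = 0.0372). Without moderation, 50.2% of all tested genes passed against Kcnj16. All 9 genes of the astrocytic endfoot list, which holds the water channel Aqp4, the dystroglycan complex, glutamate transporters and connexins, lay above the bound and were highest in animal 68, with Slc1a2 (179 ± 118 FPKM), Gja1 (80.3 ± 38.7), Aqp4 (35.3 ± 12.5) and Dag1 (31.8 ± 6.18) leading. Of all tested genes, 64.4% lay above the bound. The 8 astrocyte markers, of which 4 are on both lists, summed to 991, 1085 and 1929 FPKM, and 8 of 8 were highest in animal 68. How many of all genes were highest in animal 68 was not computed. A rise from animal 32 to 39 to 68 was seen in 32.9% of all genes, so at least that share was highest there. The part of astrocyte content in the level of Kcnj10 was not tested.

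Kcnj10 and Kcnj9 are neighbours in the rat genome and had opposite patterns over the animals. In Rnor_6.0 they lie on chromosome 13 in opposite orientation, 12.8 kb apart with no listed gene between them. Kcnj9 occupies 90703036 to 90710287 on the minus strand and Kcnj10 occupies 90723092 to 90752581 on the plus strand. The ratio of Kcnj10 to Kcnj9 FPKM was 0.413 in animal 32, 0.816 in animal 39 and 3.03 in animal 68. Kcnj16 and Kcnj2 are another neighbouring couple, both on the plus strand of chromosome 10 and 47.5 kb apart with no listed gene between them. Kcnj2 occupies 99437436 to 99439114 and Kcnj16 occupies 99388130 to 99389898. The ratio of Kcnj16 to Kcnj2 FPKM was 0.258, 0.427 and 1.16 in the same animals. In both couples the astrocytic gene was the lower of the 2 in animals 32 and 39 and the higher one in animal 68. These couples were picked after their values had been seen.

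**Figure D2:**
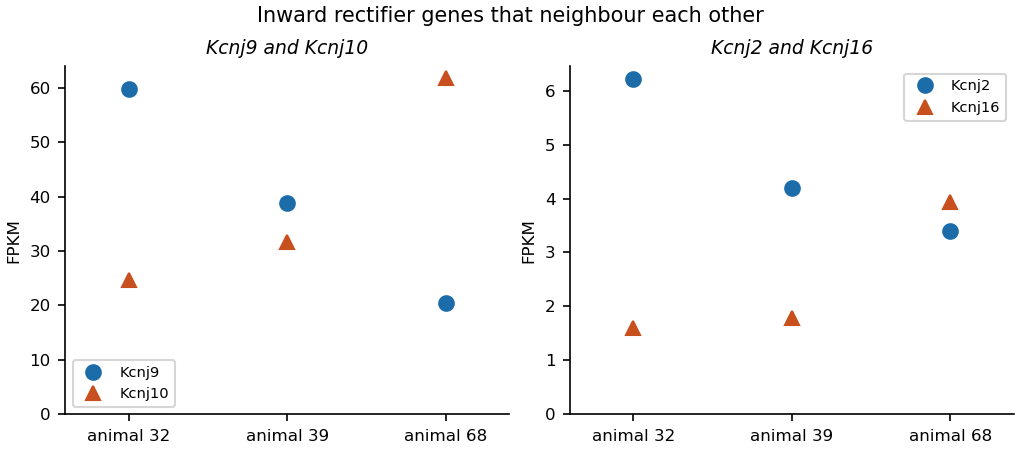
FPKM of 2 couples of neighbouring inward rectifier genes in each animal, on linear axes that start at 0. Circles are Kcnj9 (left) and Kcnj2 (right), triangles are Kcnj10 (left) and Kcnj16 (right); the triangle lies below the circle in animals 32 and 39 and above it in animal 68, where Kcnj10 reaches 61.9 and Kcnj9 20.4 FPKM.

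The promoters of the 4 neighbours are shown because adjacent genes here had unlike patterns. They are RefSeq sequences of build GRCr8, from 250 bases before to 50 bases after the annotated start, read 5′ to 3′ on the gene's strand. Capitals mark GC boxes, the letters GGGCGG on either strand, which 34.9% of 27457 promoters of this length hold. GRCr8 is not the build of the FPKM tables, and a start annotated there need not be the one used in this tissue.
Kcnj9, minus strand, chr13:87320244-87320543: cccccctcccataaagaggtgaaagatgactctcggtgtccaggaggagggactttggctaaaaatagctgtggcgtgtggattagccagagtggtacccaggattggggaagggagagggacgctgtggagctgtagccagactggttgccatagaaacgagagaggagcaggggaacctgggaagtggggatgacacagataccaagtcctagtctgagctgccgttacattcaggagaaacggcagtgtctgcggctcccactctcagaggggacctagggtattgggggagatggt
Kcnj10, plus strand, chr13:87334260-87334559: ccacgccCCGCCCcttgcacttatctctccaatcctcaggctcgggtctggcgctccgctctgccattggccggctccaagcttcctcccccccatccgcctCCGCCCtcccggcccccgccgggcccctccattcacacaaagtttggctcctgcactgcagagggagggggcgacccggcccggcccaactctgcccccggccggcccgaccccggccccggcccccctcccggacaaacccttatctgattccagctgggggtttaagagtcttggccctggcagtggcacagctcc
Kcnj2, plus strand, chr10:96559975-96560274: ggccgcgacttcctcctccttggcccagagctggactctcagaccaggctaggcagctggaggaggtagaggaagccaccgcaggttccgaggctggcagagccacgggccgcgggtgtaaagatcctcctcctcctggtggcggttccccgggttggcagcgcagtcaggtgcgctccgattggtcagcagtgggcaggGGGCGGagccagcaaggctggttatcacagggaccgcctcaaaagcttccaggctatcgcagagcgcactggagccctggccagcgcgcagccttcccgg
Kcnj16, plus strand, chr10:96517074-96517373: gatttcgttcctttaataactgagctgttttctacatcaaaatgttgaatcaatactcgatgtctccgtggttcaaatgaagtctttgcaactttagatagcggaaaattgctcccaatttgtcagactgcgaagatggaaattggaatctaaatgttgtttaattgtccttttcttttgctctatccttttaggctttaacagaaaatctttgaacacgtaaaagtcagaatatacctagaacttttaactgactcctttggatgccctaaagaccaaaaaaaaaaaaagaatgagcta

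The 4 windows differ in base composition. The Kcnj10 window is 70.3% G and C with 20 CpG dinucleotides and 2 GC boxes, and the Kcnj9 window is 56.0% G and C with 7 CpG and no GC box. The Kcnj2 window is 67.0% G and C with 19 CpG and 1 GC box, and the Kcnj16 window is 34.0% G and C with 6 CpG and none. The CCAAT box (letters CCAAT on either strand, in 37.7% of all windows) occurs 2 times in the windows of Kcnj9, Kcnj10 and Kcnj16 and 1 time in that of Kcnj2. None of the 4 holds TATAAA, which 14.3% of all windows do. Kcnj10 and Kcnj16, which were both highest in animal 68, have unlike windows in base composition. A promoter was matched for 26 of 39 symbols (66.7%), so a comparison of promoter composition over all the channels is void and none is given.

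The strong inward rectifiers, which hold neurons near the potassium equilibrium potential, were dominated by 1 gene. Kcnj4 measured 40.5, 32.3 and 14.0 FPKM in animals 32, 39 and 68 and was lowest in animal 68. Kcnj2 measured 6.22, 4.20 and 3.41, Kcnj12 4.16, 3.87 and 2.01, and Kcnj14 2.94, 3.08 and 4.31 FPKM. Kcnj14 was the exception of this set, being highest in animal 68. Kcnj4 exceeded Kcnj2 by 5.80-fold (log2 ratio 2.53, SE 0.27; limma without moderation, adjusted p = 0.0335) and Kcnj12 by 8.04-fold (log2 ratio 3.01, SE 0.15; adjusted p = 0.0357), in 3 of 3 animals. Without moderation, 50.7% of all tested genes passed against Kcnj2 and 43.4% against Kcnj12. For Kcnj2 and Kcnj16 the gene models are short, 1679 and 1769 bases, and the FPKM values correspond to whole fragments within 0.05. Kcnj2 rested on 173, 109 and 101 fragments, and Kcnj16 on 47, 49 and 123. The exact Poisson 95% interval of Kcnj16 in animal 68, from 102 to 147 fragments, does not overlap those of animals 32 (34.5 to 62.5) and 39 (36.3 to 64.8). For Kcnj2 the interval of animal 32 (148.2 to 200.8) lies above those of animals 39 (89.5 to 131.5) and 68 (82.3 to 122.7), which overlap each other. How often such intervals miss each other over all genes was not tested, and this couple was picked after its values had been seen. The intervals of both genes cover counting error in unequal libraries only.

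Kcnj11 is the pore of the ATP-sensitive channel, which couples metabolism to excitability and needs a sulfonylurea receptor to work. Kcnj11 measured 18.5, 17.7 and 9.12 FPKM in animals 32, 39 and 68. The neuronal sulfonylurea receptor gene Abcc8 measured 14.9, 14.4 and 8.93 FPKM, so pore and receptor were both lowest in animal 68 and their FPKM ratio was 1.25, 1.23 and 1.02. Abcc9, the vascular and muscle receptor gene, measured 3.57 ± 0.467 FPKM. The related renal channel gene Kcnj1 was listed at 0 in animals 32 and 68 and at 0.0520 FPKM in animal 39. Kcnj15 measured 0.0834 ± 0.0873 FPKM.

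Inward rectifier scaffolds are the PDZ proteins that hold channels at synapses and on the basolateral side of cells. All 9 listed genes lay above 1 FPKM, as did 64.4% of all tested genes, and their median was 34.9 ± 3.62 FPKM. Cask appears under 2 gene IDs, of which the other was listed at 0 and is not counted. Dlg4 (209.6 ± 36.3), Lin7b (57.6 ± 13.6), Dlg2 (56.6 ± 3.93) and Apba1 (36.8 ± 3.96) were highest.

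Among the two-pore channels, the mechanically and lipid-gated group led. Kcnk4 (TRAAK), placed at nodes of Ranvier in myelinated axons of rodents, measured 52.7, 45.1 and 17.1 FPKM in animals 32, 39 and 68. Kcnk2 (TREK1), a target of volatile anaesthetics, measured 16.2, 11.9 and 7.86 FPKM. Both were lowest in animal 68. Kcnk10 (TREK2), reported in rodent astrocytes, stayed near the bound at 1.26, 1.59 and 1.33 FPKM. Kcnk2 exceeded Kcnk10 by 7.80-fold (SE 0.33 on the log2 scale; limma without moderation, adjusted p = 0.0192). In that fit 76.3% of all tested genes passed against Kcnk10. Kcnk4 was above Kcnk2 in 3 of 3 animals, but the log2 ratio of Kcnk2 to Kcnk4 (-1.57, SE 0.24) did not pass in limma without moderation (adjusted p = 0.0613). The share passing against Kcnk4 was 24.7%.

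The acid-sensitive and leak channels followed. Kcnk9 (TASK3) measured 14.8, 13.7 and 7.60 FPKM, and its relative Kcnk3 (TASK1) 3.30, 3.03 and 1.58. Their ratio hardly moved, with Kcnk3 below Kcnk9 by log2 ratios of -2.13, -2.14 and -2.20 (mean -2.15, SE 0.02; limma without moderation, adjusted p = 0.0286). In that fit 39.6% of all tested genes passed against Kcnk9. The whole locus of Kcnk9 lies within that of Trappc9 on the same strand (13.4 FPKM), so the split of fragments between them is uncertain. Kcnk15, another gene of this group, lay below the bound at 0.155 ± 0.0725 FPKM. Kcnk1 (TWIK1), a leak channel with a very small current, measured 16.8, 21.8 and 14.7 FPKM. Kcnk1 was above Kcnk2 in 3 of 3 animals, but the difference did not pass (log2 ratio 0.60, SE 0.28; limma without moderation, adjusted p = 0.208), and the ratio ran from 0.05 in animal 32 to 0.90 in animal 68. Kcnk7, of the same group as Kcnk1, measured 0.0544 ± 0.0637 FPKM.

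The remaining two-pore genes were low. Kcnk12 (THIK2) measured 6.29, 4.86 and 2.96 FPKM and was lowest in animal 68. Its relative Kcnk13 (THIK1), known as a channel of microglia, measured 0.892, 0.732 and 1.17 FPKM and was highest in animal 68, as were 6 of 6 microglial markers, whose sum was 42.0, 68.6 and 96.3 FPKM. These 6 markers all rose from animal 32 to 39 to 68, as 32.9% of all genes did. The part of microglial content in the level of Kcnk13 was not tested. The log2 ratio of Kcnk12 to Kcnk13, 2.18 (SE 0.45), did not pass without moderation (limma, adjusted p = 0.0540). Kcnk16 and Kcnk5 belong to the group activated by alkaline pH. Kcnk16 measured 0.574, 0.922 and 2.52 FPKM and was highest in animal 68, and Kcnk5 lay below the bound at 0.301 ± 0.0968 FPKM.

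The large-conductance channel had 1 dominant auxiliary subunit. Its pore gene Kcnma1, the BK channel opened jointly by calcium and depolarisation, measured 9.45, 12.8 and 11.1 FPKM in animals 32, 39 and 68. Kcnmb4, the neuronal beta subunit that slows the channel, measured 40.1, 44.9 and 28.7 FPKM. Kcnmb4 exceeded the pore 3.35-fold (log2 ratio 1.75, SE 0.21; limma without moderation, adjusted p = 0.0263) in 3 of 3 animals. In that fit 70.6% of all tested genes passed against Kcnma1. Kcnmb4 made up 97.8 ± 0.140% of the FPKM summed over the 4 beta subunit genes. Kcnmb2, whose product inactivates the channel, was at 0.669 ± 0.145 FPKM. Kcnmb1, the smooth muscle subunit, was at 0.156 ± 0.0689 FPKM, and its locus lies wholly within that of Kcnip1 on the opposite strand. Of 4 gamma subunit genes, Lrrc55 alone lay above 1 FPKM (5.65 ± 0.509), while Lrrc38 and Lrrc52 lay below and Lrrc26 was listed at 0. Kcnu1, the pore gene of the sperm relative of this channel, measured 0.0225 ± 0.00832 FPKM.

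**Figure D3:**
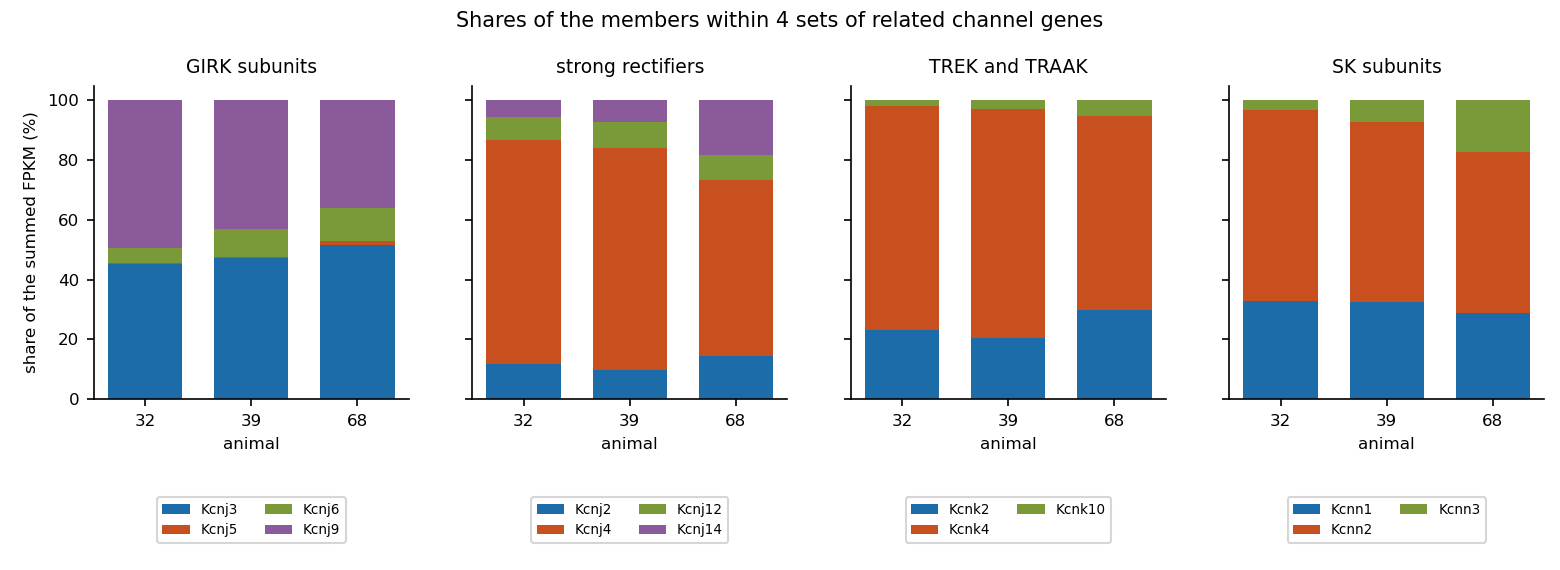
Share of each gene in the summed FPKM of 4 sets of related channel genes, in percent, with 1 stacked bar per animal. Kcnj3 and Kcnj9 together fill most of the GIRK bars, Kcnj4 most of the strong rectifier bars and Kcnk4 most of the TREK and TRAAK bars, and the share of Kcnn3 among the SK genes is 3.07% in animal 32 and 17.3% in animal 68.

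The small-conductance channels, which calcium opens through bound calmodulin and which carry the afterhyperpolarisation, included both the most and the least even of the 25 channels whose mean reached 1 FPKM. Kcnn2 (SK2) measured 11.1, 10.9 and 11.1 FPKM in animals 32, 39 and 68, and Kcnn1 (SK1) 5.70, 5.91 and 5.86. Their coefficients of variation were 0.929% and 1.85%. Kcnn1 was lower than Kcnn2 by a log2 ratio of -0.91 (SE 0.02; limma without moderation, adjusted p = 0.00498). Against Kcnn2, 78.6% of all tested genes passed in that fit. Kcnn3 (SK3) measured 0.533, 1.28 and 3.54 FPKM, a 6.64-fold difference between animals 32 and 68. The log2 ratio of Kcnn2 to Kcnn3 was 4.15, 3.00 and 1.62 in the same animals and did not pass (2.92, SE 0.73; limma without moderation, adjusted p = 0.119), nor did that of Kcnn1 to Kcnn3 (2.01, SE 0.72; adjusted p = 0.161). Against Kcnn3, 0% of 18928 tested genes passed without moderation, so these 2 fits cannot decide whether the ratios differ from 0. Kcnn4, the intermediate-conductance channel of blood cells and microglia, lay below the bound at 0.227 ± 0.0572 FPKM. All 8 genes of the SK complex list lay above the bound, among them the calmodulin genes Calm3 (1041 ± 131 FPKM) and Calm2 (485 ± 94.4) and the phosphatase scaffold gene Ppp2r1a (260.1 ± 12.5). Of all tested genes, 64.4% lay above it.

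A list of calcium sources for these channels was also examined. All 11 listed genes lay above 1 FPKM, as did 64.4% of all tested genes, and their median was 15.5 ± 1.69 FPKM. The store release channels Itpr1 (63.3 ± 3.14) and Ryr2 (19.2 ± 4.05) and the voltage-gated pores Cacna1a (37.1 ± 6.72) and Cacna1i (25.4 ± 3.17) were the 4 highest.

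Sodium-activated channels were led by Kcnt1 (SLACK), a gene of severe childhood epilepsies. Kcnt1 measured 29.0, 25.6 and 14.3 FPKM in animals 32, 39 and 68, and Kcnt2 (SLICK) 12.4, 10.5 and 8.49. Both were lowest in animal 68. Kcnt1 exceeded Kcnt2 by 2.12-fold (log2 ratio 1.09, SE 0.17; limma without moderation, adjusted p = 0.0407). In that fit 62.8% of all tested genes passed against Kcnt2. The log2 ratio of Kcnma1, another pore gene of the SLO family, to Kcnt1 was -0.99 (SE 0.36) and did not pass (limma without moderation, adjusted p = 0.144).

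The 24 pairs of related genes were tested in a family of fits in which each gene's log2 ratio to the second gene of the pair was taken within each animal. With moderation, 22 pairs passed, but in most of these fits the shared reference gene drove the prior degrees of freedom to infinity, which makes p-values too small, so none is printed. The background was high, with 82.2% of all tested genes differing from the second gene over the 21 second genes. Without moderation, where each ratio keeps its own spread over the 3 animals, 15 of 24 pairs passed, against 57.9% of all tested genes. By second gene this share ran from 0% for Kcnn3, 24.7% for Kcnk4 and 36.7% for Kcnj9 to 78.6% for Kcnn2 and 80.6% for Kcnu1. A pass or a failure of a pair therefore has to be read beside the share of its second gene. A pair that passes is therefore a common event in these tables. Over animals 32 and 39 alone, with 1 degree of freedom, 2 pairs passed without moderation, Kcnmb4 over Kcnmb2 and Kcnma1 over Kcnu1, against 5.38% of all tested genes. In 23 of 24 pairs the ratio had the same sign in all 3 animals, and the exception was Kcnj3 over Kcnj9 (log2 ratio 0.17, SE 0.19; limma without moderation, adjusted p = 0.487). Of the pairs not yet described, Kcnj6 over Kcnj5, Kcnj3 over Kcnj6, Kcnj11 over Kcnj1, Kcnmb4 over Kcnmb2, Kcnmb4 over Kcnmb1, Kcnn2 over Kcnn4 and Kcnma1 over Kcnu1 passed without moderation. Kcnj9 over Kcnj6 (log2 ratio 2.37, adjusted p = 0.0511) and Kcnj10 over Kcnj2 (3.00, adjusted p = 0.0683) did not (limma). For the second genes of the pairs that passed here, the share of all tested genes passing ran from 67.7% (Kcnj6) to 80.6% (Kcnu1). For second genes of other pairs that failed, it was 38.6% (Kcnk2), 47.9% (Kcnt1) and 74.9% (Kcnk13). Ratios between genes also depend on gene models and on how uniquely fragments map, an error shared by the 3 animals.

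**Figure D4:**
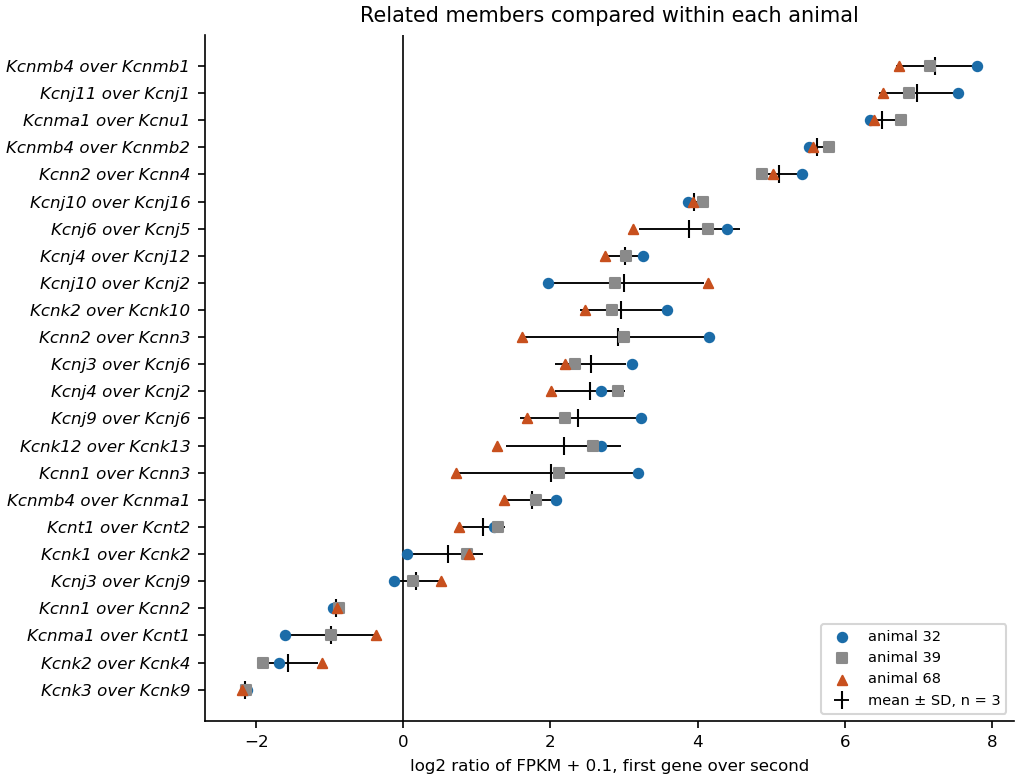
Log2 ratio of FPKM + 0.1 for the 24 pairs of related channel genes, first gene over second. Circles, squares and triangles are animals 32, 39 and 68, and black ticks with bars are the mean ± SD (n = 3); the ratios of Kcnk3 to Kcnk9 and Kcnn1 to Kcnn2 are tightest, and those of both SK genes to Kcnn3 are widest.

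The spread of the channels between animals is described here without a test. Over the 25 channels with a mean of at least 1 FPKM, the median SD was 0.52 on the log2(FPKM + 0.1) scale, against 0.20 over 13378 genes past the same filter. Over animals 32 and 39 alone, for the same genes, these medians were 0.22 and 0.12. The highest and the lowest animal were over 2-fold apart for 13 of the 25 (52.0%), where 14.5% of all genes were. Animal 68 was over 2-fold below animal 32 for 9 channels, where 3.05% of all genes were. These, with folds of the FPKM values themselves, were Kcnk4 (3.09-fold), Kcnj9 (2.93-fold), Kcnj4 (2.89-fold), Kcnk12, Kcnk2, Kcnk3, Kcnj11, Kcnj12 and Kcnt1. The last 6 lay between 2.02- and 2.12-fold, just past the bound, and with all libraries scaled to equal totals 3 of the 9 stayed past it. With libraries scaled by the median of gene ratios, 10 channels were past it. Animal 68 was over 2-fold above animal 32 for 4 channels, where 9.77% of all genes were, namely Kcnn3 (6.64-fold), Kcnk16 (4.39-fold), Kcnj10 (2.50-fold) and Kcnj16 (2.45-fold).

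Most of this spread involved animal 68. Animals 32 and 39 were over 2-fold apart for 1 channel, Kcnn3, where 3.14% of all genes were, and animals 39 and 68 for 5, where 6.14% were. Without animal 68 the count was 0, because the mean of Kcnn3 over animals 32 and 39 fell under the filter of 1 FPKM. The median log2 difference of animal 68 from animal 32 was -0.54 over the 25 channels and 0.07 over all genes, and that of animal 39 from animal 32 was -0.07 and 0.04. Under the scaling alternatives the difference of animal 68 ranged from -0.63 to -0.47 over the channels and from -0.02 to 0.14 over all genes. In 13 of 25 channels the order was highest in animal 32, then 39, then 68 (21.8% of all genes), and in 5 it was the reverse (32.9%). The 6 pan-neuronal markers were all lowest in animal 68 (35.5% of all genes), with sums of 2952, 2521 and 1995 FPKM in animals 32, 39 and 68. Their log2 differences of animal 68 from animal 32 ran from -0.81 (Snap25) to -0.17 (Eno2). Of 6 glutamatergic and 6 GABAergic markers, 5 each were lowest there, but Slc17a7 (521, 537 and 495 FPKM) and Slc32a1 (33.0, 32.3 and 31.2) changed little. Neurod6 rose from 47.3 to 106.6 FPKM, and Gad2 was lowest in animal 39. The 7 oligodendrocyte markers all rose from animal 32 to 39 to 68, as 32.9% of all genes did, with sums of 3237, 5006 and 8766. No gene of these marker lists was listed at 0. The part of tissue composition in the channel differences was not tested.

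**Figure D5:**
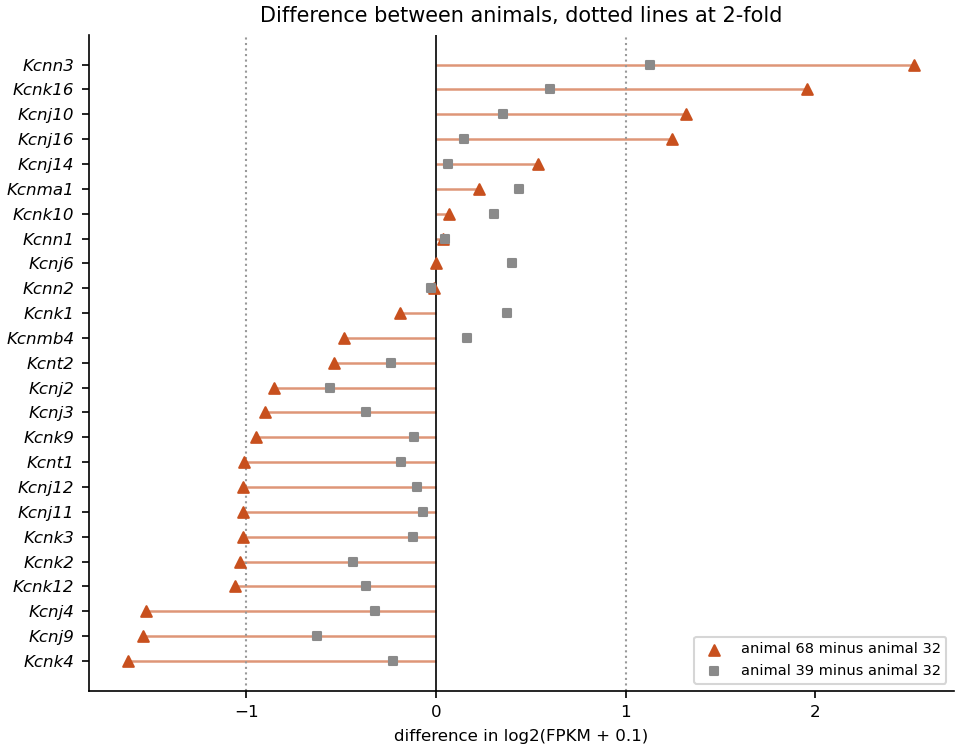
Difference in log2(FPKM + 0.1) of animal 68 (triangles) and animal 39 (squares) from animal 32, for the 25 channels whose mean reached 1 FPKM. Dotted lines mark 2-fold; 9 triangles lie past the left line, 4 past the right one, and the triangles of Kcnn2, Kcnj6 and Kcnn1 lie within 0.04 of 0.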

How the data were processed

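Motor cortex of 3 untreated male rats was profiled by mRNA sequencing, 1 library per animal. The deposited FPKM values came from a Perl script that normalized each gene's fragment count, per the labels; HISAT2 2.0.4, StringTie 1.3.0 and Rnor_6.0 are named without role per the submitters' processing notes. The sources used here give neither annotation release nor strandedness, so fragments of overlapping genes cannot be told apart. FPKM carries no counts; depth was inferred from genes spanning at most 400 bases, where 82.0 to 86.6% of values were within 0.02 of whole fragments, a share that includes the genes that set the depth. PCR fragments are not independent molecules, so intervals cover counting error only. No value above 0 was shared between libraries.

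Tests used limma 3.58.1 in R 4.3.3 on log2(FPKM + 0.1), which understates folds of low genes, over 18929 genes above 0 in a library, with Benjamini-Hochberg adjustment over all genes and a threshold of 0.05. The level fit was moderated (prior degrees of freedom 2.67). Pair fits without moderation were added after the data were seen. With 3 animals the smallest p of an exact sign-flip test is 0.25, so none was run. The moderated fits were tested on simulated data, and the fits without moderation were not. In the simulated ratios the reference gene cancelled exactly, so that simulation could not show the effect of a shared reference. Descriptive values used numpy 2.4.6, pandas 2.3.3 and scipy 1.17.1 under Python 3.11.15.

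Members, lists and pairs were chosen with earlier results of these data known. Channels with a mean of at least 1 FPKM are named with each animal's value, the others by count or mean; partner lists by up to 4 highest genes and those at 0, except 1 gene that is not reported here. Of 69 listed partner symbols 67 were found, 61 above and 3 below 1 FPKM, with a median of 27.4 FPKM. Alternatives changed the pseudocount (1 or 0.01), filter, scaling, limma prior and bounds (0.5 or 2 FPKM; 2-fold), and left out each animal.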

Additional observations from a re-analysis of the deposited data

How the results depend on the processing

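The pair fits without moderation and the summaries over animals 32 and 39 were chosen after the data were seen. The other alternatives were planned. The count of channels above the bound ran from 19 to 24 over all alternatives, which include bounds of 0.5 and 2 FPKM. At a bound of 1 FPKM it ran from 21 to 23. The count of pairs that passed ran from 15 to 22 over all alternatives but 1. The exception was leaving out animal 68 without moderation, where 2 passed. The fit without moderation over all animals, where 15 passed, lies in the range. The other fits were moderated, with the limit on p-values given above. With the filter of a mean of at least 1 FPKM 15 passed, but that filter left pairs with a lower gene untested. The count below the bound became 0 with a filter of a mean of at least 1 FPKM, which leaves no such gene to test. Otherwise it was 7 to 11 over all bounds and 7 to 10 at a bound of 1 FPKM. The number of channels over 2-fold apart between animals was the least stable value. It fell from 13 to 6 with a pseudocount of 1 and to 7 with equal totals, and the number over 2-fold lower in animal 68 than in animal 32 fell from 9 to 3 under either. With libraries scaled by the median of gene ratios these 2 counts were 14 and 10, and with no filter on the mean 16 and 9. Leaving out 1 animal gave 0 (without animal 68, where Kcnn3 also dropped under the mean filter) to 13 (without animal 39), with 5 without animal 32. The count of partner genes above 1 FPKM, 61, ran from 59 to 61 at that bound and from 59 to 63 with the other bounds included. With 1 animal left out, 16 to 22 pairs passed with moderation. In those moderated fits, Kcnk2 over Kcnk4, Kcnn2 over Kcnn3, Kcnn1 over Kcnn3 and Kcnma1 over Kcnt1 no longer passed without animal 32 or without animal 39. None of these pairs had passed without moderation over all animals. With moderation, Kcnk3 over Kcnk9 also no longer passed without animal 39. Fits without moderation were not run without animal 32 or without animal 39, so how the printed pair results depend on those animals was not tested. In that setting Kcnj11 over Kcnj1 could not be tested, because Kcnj1 was listed at 0 in animals 32 and 68. The level of Kcnk3 above 1 FPKM was lost without animal 39 (limma, adjusted p = 0.0504), and that of Kcnn3 passed without animal 32 (adjusted p = 0.0443). Kcnk10 passed without a trend in the limma prior (adjusted p = 0.0267) and against 0.5 FPKM (adjusted p = 0.00205). Against 2 FPKM, Kcnj12, Kcnj16 and Kcnk3 no longer passed. Among levels that had not passed, some changed sign. With 1 animal left out, Kcnk16 (0.15 on the log2 scale over the bound) ran from -0.41 without animal 68 to 0.57 without animal 32, and Kcnn3 (0.42) from -0.23 to 1.03 in the same settings. Against 2 FPKM, Kcnk10 was at -0.50, Kcnk16 at -0.79 and Kcnn3 at -0.51. No level or pair that passed changed sign. Differences in FPKM of genes at a few fragments are not detectable at this depth. No paired analysis was possible because all animals form 1 group.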
